A study of Mus musculus with 6 samples.

Results

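The EGF family of growth factors, its ErbB receptors and the proteases that release the ligands were followed through 6 expression arrays of RAW264.7 cells, a macrophage line of the mouse used as a source of osteoclast-like cells. All probe sets annotated to exactly 1 gene were taken for 10 named genes. This gave 25 probe sets for 9 of the 10 genes, out of 45037 probe sets and 18193 genes in all. Areg, the amphiregulin gene, was not analysed here. The gene family was chosen by its role, but selected on a measured value too, the higher Hbegf signal in low sodium on these same arrays. Differences of the members between the media are therefore given as a description.

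The cells spent 24 hours in normal sodium (137 mmol/l, 3 arrays) or in low sodium (120 mmol/l, 3 arrays), where mannitol brought the diluted medium back to 290 mOsm/l. The labels name 10 ng/ml M-CSF (written M-SCF there) and 30 ng/ml RANKL, the cytokine that drives osteoclast formation, but do not settle whether cells in normal sodium were given them. They also speak of 4 biological replicates per group, of which 3 per group were analysed here. All cells are of 1 transformed line, and the contrast is between the 2 media as labelled.

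EGF family ligands are made as precursors anchored in the cell membrane and are set free by cell-surface metalloproteases. ADAM17 releases HB-EGF, TGF-alpha, amphiregulin and epiregulin, while ADAM10 is the main sheddase of betacellulin and EGF. The freed ligands bind EGFR or other ErbB receptors on the same or on neighbouring cells and switch on the ERK and PI3 kinase pathways. Macrophages are a known source of HB-EGF, and ADAM17 is best known in them for the release of TNF.

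Values are array intensities on a linear scale, and differences are low minus normal sodium on a log2 scale after 1 was added to each intensity. Background was read from 62 probe sets of genes that macrophages do not make, such as insulin and photoreceptor genes. A probe set was counted as near background on an array where it lay at or under their 90th percentile, which ranged from 47.1 to 96.5 over the 6 arrays. The replicate 3 arrays of both media stood apart. Spiked Bacillus control transcripts averaged a log2 intensity of 9.37 in replicates 1 and 2 and 7.72 in replicate 3, whereas hybridisation controls averaged 12.11 and 12.18. The word batch stands below for this split, which was read from the values. Replicate pairs were formed by number, and for replicates 1 and 2 arrays of the same number matched no better than crossed ones. All 10 macrophage markers examined, among them Csf1r, Cd68 and Lyz2, were above background on all arrays, with summed intensities of 123466 to 131905 in normal and 130822 to 147412 in low sodium. Of 10 epithelial and fibroblast markers, 7 were near background in both media, with Cdh1 and Dcn among them. Krt5, also among the 7, was itself in the set of genes that gave the background level. Krt8 and Col1a2 were above background on all arrays. Epcam read 247, 348 and 131 in normal and 182, 45.9 and 79.8 in low sodium. The summed intensity of the 10 was 432 to 770 in normal and 395 to 690 in low sodium.

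Of the 25 probe sets, 9 were near background in both media, against 41.8% of all probe sets. These were the 1 probe set of Ereg and the 1 of Erbb2, 1 each of Btc, Tgfa, Erbb3 and Adam10, and 3 of Egfr. A further 11 were above background on all 6 arrays, against 40.7% of all probe sets, and belonged to Tgfa, Egfr, Erbb3, Adam17 and Adam10. The remaining 5 probe sets, of Hbegf, Btc and Egfr, crossed the background level on some arrays.

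Among the ligands, Hbegf, which encodes heparin-binding EGF-like growth factor, had a higher signal in low sodium on both of its probe sets. The probe set 1418350_at, which had the higher mean over all 6 arrays through its low-sodium readings, read 47.1, 58.2 and 66.6 in normal and 666, 611 and 448 in low sodium (replicates 1, 2 and 3, the order used throughout). All 3 low-sodium arrays lay far above all 3 normal-sodium arrays, of which replicates 1 and 2 were near background. On the log2 scale the group means were 5.85 ± 0.25 and 9.15 ± 0.30 (SD, n = 3), a difference of 3.30 ± 0.26 (SE, 3 against 3 arrays), or 9.83-fold. With the background level put in place of dimmer values on the normal-sodium arrays, the difference was 2.94, or 7.65-fold. The difference was 3.79, 3.37 and 2.73 in replicates 1, 2 and 3. In such bulk RNA, more cells with the transcript and more transcript per cell cannot be told apart.

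The other Hbegf probe set, 1418349_at, read 90.3, 102 and 56.9 in normal and 324, 315 and 131 in low sodium. The groups again did not overlap, and the replicate 3 array was the dimmest within each medium. Its difference was 1.54 ± 0.45 (SE), or 2.92-fold, with 1.83, 1.61 and 1.19 in replicates 1, 2 and 3. The probe sets therefore shared the direction in every replicate pair, while the size of the difference was not the same on both.

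**Figure D1:**
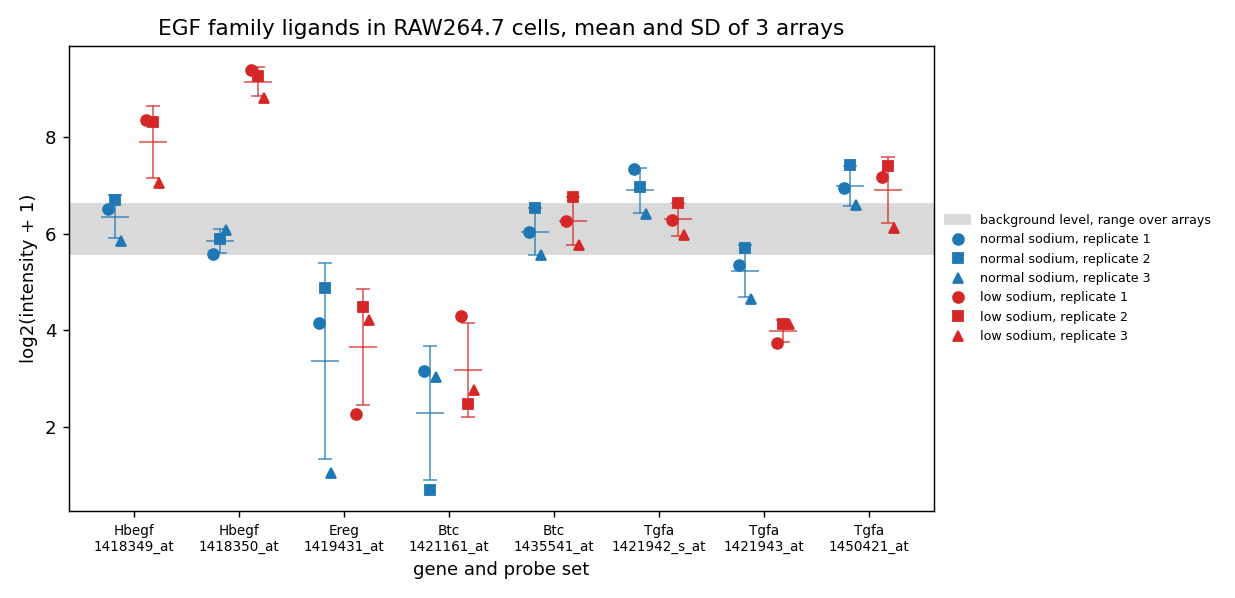
The 8 ligand probe sets, with log2(intensity + 1) on the vertical axis, a point for each array (blue for normal, red for low sodium, marker shape for the replicate number) and the mean with SD of 3 arrays as bars. The grey band is the range of the background level over the 6 arrays, 47.1 to 96.5 as intensity. Both Hbegf probe sets are separated between the media, and only those of Hbegf lie above the whole band on all low-sodium arrays. Judged by the level of each array, 2 Tgfa probe sets were also above background on all 6 arrays. Btc 1435541_at was so on all low-sodium arrays.

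Tgfa, the gene of TGF-alpha, a ligand of EGFR, had a lower mean in low sodium on all 3 probe sets, by amounts that were not alike. The probe set 1421942_s_at read 160, 124 and 83.4 in normal and 77.1, 98.4 and 61.5 in low sodium. Low sodium was the dimmer of the media in each replicate pair, with a difference of -0.60 ± 0.33 (SE), but the groups overlapped. The probe set 1450421_at, also above background on all arrays, read 123, 170 and 95.6 in normal and 144, 168 and 68.4 in low sodium, a difference of -0.09 ± 0.43. The third, 1421943_at, read 40.0, 51.1 and 24.1 against 12.3, 16.4 and 16.5. These groups did not overlap, at a difference of -1.24 ± 0.34, but all 6 readings were near background.

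Ereg, the epiregulin gene, and Btc, the betacellulin gene, gave little signal. Ereg read between 1.07 and 28.3 in normal and between 3.84 and 21.4 in low sodium, near background on every array, and the differences in replicates 1, 2 and 3 were -1.88, -0.39 and 3.16. The Btc probe set 1421161_at read between 0.620 and 18.5 over the 6 arrays. The other, 1435541_at, read 64.8, 91.5 and 46.4 in normal and 75.9, 108 and 53.7 in low sodium. It was slightly higher in low sodium in each replicate pair, by 0.22, 0.23 and 0.21, while the spread between replicates was larger than that (log2 SD 0.48 and 0.50).

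Of the receptors, Egfr, the receptor shared by HB-EGF, TGF-alpha, amphiregulin, epiregulin and betacellulin, was covered by 7 probe sets that did not read alike. The brightest, 1460420_a_at, read 445, 666 and 229 in normal and 537, 477 and 226 in low sodium. The groups overlapped over most of their range, replicate 3 was the dimmest array in both, and the difference was -0.08 (95% confidence interval -1.38 to 1.23). Of the other 6 probe sets, 3 were near background on all arrays. Another, 1451530_at, was near background on all but 1 array, with readings of 22.6 to 64.6.

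The Egfr probe sets 1432647_at and 1454313_at formed a pair with the same pattern by batch. The first read 102, 116 and 65.1 in normal and 213, 178 and 48.8 in low sodium, and the second 95.1, 94.2 and 54.8 against 164, 144 and 29.0. Both were higher in low sodium in replicates 1 and 2, by means of 0.84 and 0.69, and lower in replicate 3, by -0.41 and -0.90. The replicate 3 readings were dim, against background levels of 61.7 in normal and 47.1 in low sodium. Those of 1454313_at were near background in both media, and those of 1432647_at lay only just above it. In the platform annotation both carry the same source transcript, as do the probe sets of Hbegf, those of Tgfa and those of Adam17 among themselves, so such probe sets are no separate samples of a gene. Over the 7 probe sets the difference ranged from -0.08 to 0.96, and in none did the groups separate.

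Erbb3 encodes a receptor with very weak kinase activity that signals through its partners. Its probe set 1434606_at read 455, 501 and 608 in normal and 404, 417 and 472 in low sodium. Low sodium was dimmer in each replicate pair, by -0.17, -0.27 and -0.37, and the groups overlapped in that the brightest low-sodium array exceeded the dimmest normal-sodium array. The difference was -0.27 (95% confidence interval -0.81 to 0.28). The second Erbb3 probe set read 3.69 to 13.2, near background throughout. Erbb2, the receptor that binds no ligand of its own and serves as the preferred dimer partner, read 7.56 to 15.8 in normal and 3.28 to 15.3 in low sodium on its 1 probe set, also near background.

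**Figure D2:**
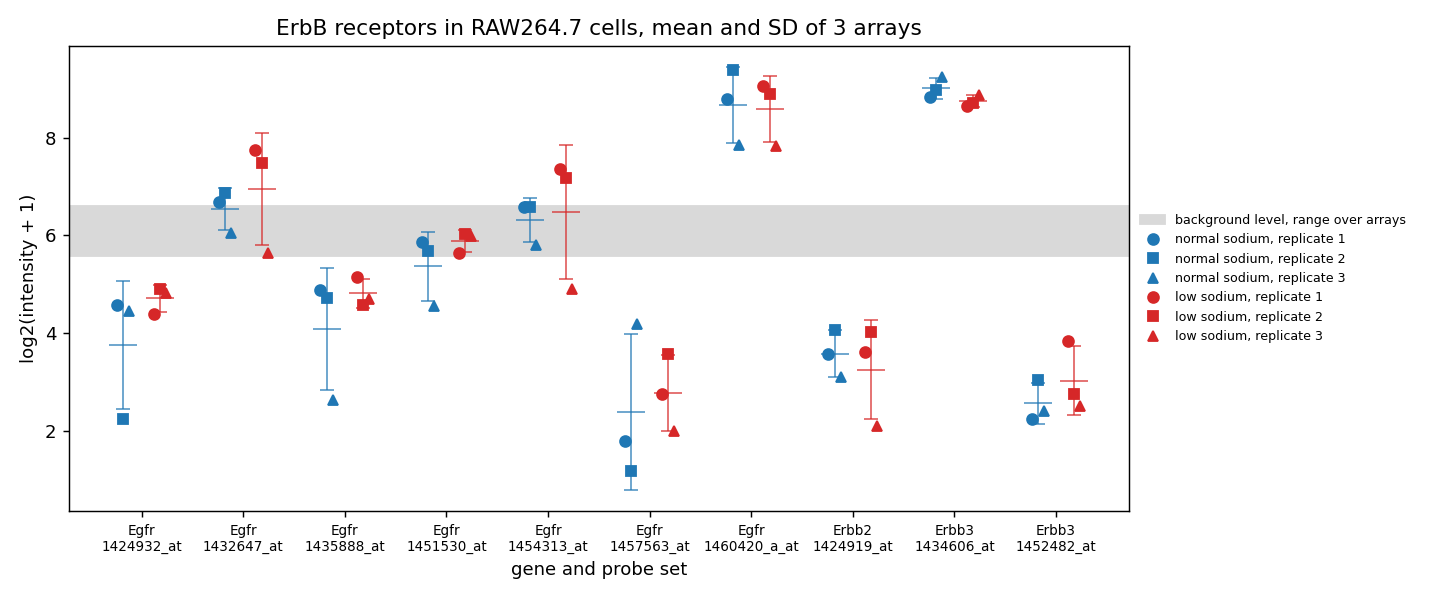
The 10 receptor probe sets, with log2(intensity + 1) on the vertical axis, a point for each array and the mean with SD of 3 arrays as bars; the grey band is the range of the background level over the arrays. Only Egfr 1460420_a_at and Erbb3 1434606_at lie above the whole band on all 6 arrays, and in both the media overlap. Egfr 1432647_at lies within the band in replicate 3 but was above the level of each array.

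The sheddases were bright on most of their probe sets. The 250 bases before the annotated start of each gene are shown because the media separated on all probe sets of Adam17 and on none of Adam10. The mean was higher in low sodium on every probe set of both genes, and a difference between the genes was not tested. The sequences are from RefSeq (GRCm38.p6), with Adam17 at chr12:21373633-21373882 on the minus strand and Adam10 at chr9:70678732-70678981 on the plus strand, each written 5′ to 3′ along its gene. Capitals mark matches to the GC box GGGCGG or the CCAAT box CCAAT on either strand.
Adam17: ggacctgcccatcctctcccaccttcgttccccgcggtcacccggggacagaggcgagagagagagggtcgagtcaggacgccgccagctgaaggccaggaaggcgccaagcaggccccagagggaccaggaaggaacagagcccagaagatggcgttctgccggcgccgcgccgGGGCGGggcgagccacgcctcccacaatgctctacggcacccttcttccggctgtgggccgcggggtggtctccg
Adam10: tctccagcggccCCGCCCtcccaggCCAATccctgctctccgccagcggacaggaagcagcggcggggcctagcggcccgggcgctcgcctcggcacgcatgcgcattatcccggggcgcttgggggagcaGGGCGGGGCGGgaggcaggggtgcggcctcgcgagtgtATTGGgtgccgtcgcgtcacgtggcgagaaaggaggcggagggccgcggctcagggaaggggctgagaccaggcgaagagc

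Adam17 held 1 GC box and Adam10 held 3, of which a pair shares 1 base, while 32.7% of 32851 RefSeq promoters of the same length held at least 1. The CCAAT box was matched 2 times in Adam10 and 0 times in Adam17, against 33.8% of promoters. Neither held the AP-1 site TGANTCA, found in 6.75% of promoters, or the TATA box TATAAA, found in 12.4%. Such matches describe letters in this window and no binding. Of the 10 genes, 7 had a promoter sequence at hand, and Hbegf was not among them.

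Adam17, the gene of the TNF and HB-EGF sheddase, read higher in low sodium on all 3 probe sets, and in none did the groups overlap. The probe set 1421858_at read 6100, 6420 and 3643 in normal and 8238, 7859 and 6945 in low sodium. The next, 1421857_at, read 3589, 3400 and 2046 against 4612, 4362 and 3968. The last, 1421859_at, read 2812, 2646 and 2180 against 3616, 3524 and 4070. The lowest reading of each probe set was the normal-sodium replicate 3 array.

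The 3 Adam17 differences lay close together, at 0.55 ± 0.29, 0.56 ± 0.29 and 0.56 ± 0.21 (SE, 3 against 3 arrays) in the order given, or 1.47-fold. By replicate, the differences were larger in replicate 3, at 0.93, 0.96 and 0.90, than the means over replicates 1 and 2, at 0.36, 0.36 and 0.39. Whether they truly differ between the batches was not tested, since replicate 3 holds 1 array per medium. The 3 probe sets read the same RNA on the same arrays and are no replicates of each other.

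Adam10 encodes the related sheddase that also cleaves Notch. Its brightest probe set, 1428103_at, read 6171, 6493 and 3344 in normal and 7225, 7087 and 4216 in low sodium. It was higher in low sodium in each replicate pair, by 0.23, 0.13 and 0.33, but both replicate 3 arrays lay below the other 4 and the groups overlapped, with a difference of 0.23 (95% confidence interval -0.71 to 1.17). On 1450105_at the arrays read 1762, 1707 and 1268 against 1751, 1686 and 1825, a difference of 0.17 (-0.39 to 0.73), and on 1450104_at 1118, 1013 and 881 against 1056, 876 and 1159, a difference of 0.03 (-0.53 to 0.59). On these, the media differed by means of -0.01 and -0.15 in replicates 1 and 2, and by 0.52 and 0.39 in replicate 3. These intervals include differences as large as those of Adam17. The fourth probe set read 7.58 to 23.5, near background.

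**Figure D3:**
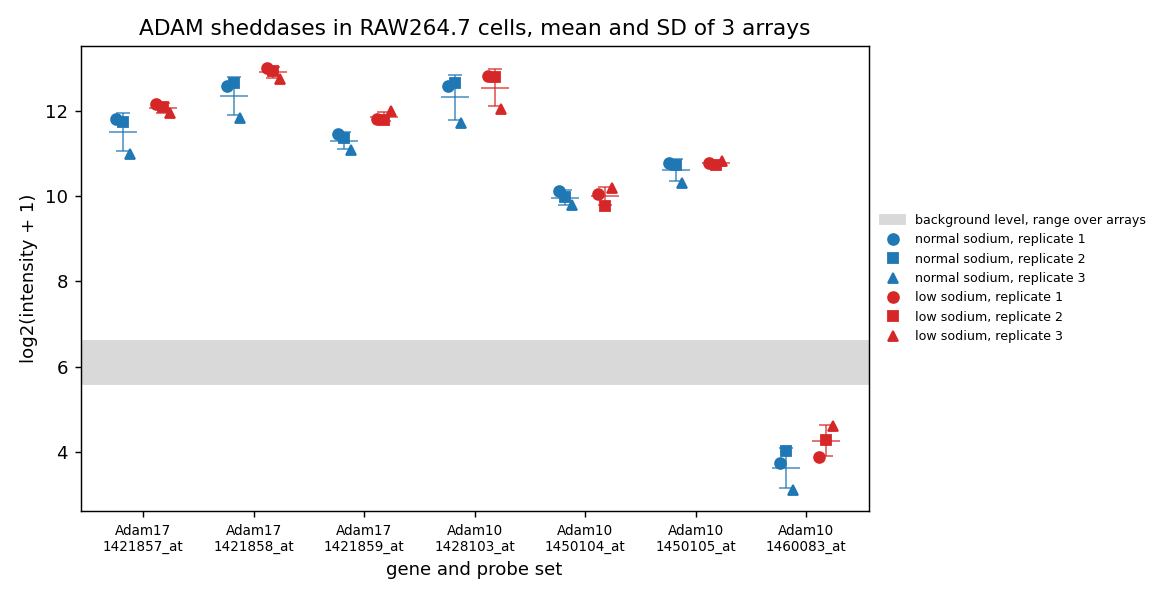
The 7 sheddase probe sets, with log2(intensity + 1) on the vertical axis, a point for each array and the mean with SD of 3 arrays as bars; the grey band is the range of the background level over the arrays. On the 3 Adam17 probe sets all low-sodium arrays lie above all normal-sodium arrays, and on the 4 of Adam10 the media overlap.

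Over the 25 probe sets, the groups did not overlap with low sodium higher in 5, the 2 of Hbegf and the 3 of Adam17, against 6.97% of all probe sets, and with low sodium lower in 1, of Tgfa, against 7.88%. Low sodium was higher in all 3 replicate pairs in 8 probe sets, against 17.4% of all, and lower in all 3 pairs in 3, against 18.7%. The fit of limma across all probe sets, without a batch term and with Benjamini-Hochberg adjustment, called 0 of 25 at an adjusted p under 0.05 and 0% of all probe sets in either direction. This fit also recovered 0% of simulated log2 changes of 1 or 2, so its 0 calls do not show that differences are absent. At an unadjusted p under 0.05 it had 3 higher, 2 of Hbegf and 1 of Adam17, against 3.24% of all, and 1 lower, of Tgfa, against 3.13%. With a term for replicate 3 and a trended variance prior, a setting taken up with its counts on these data known, limma called 5 higher, again those of Hbegf and Adam17, against 2.07% of all, and 0 lower, against 2.01%. Among the 15 member probe sets at or above the median brightness, these were 5 higher against 4.09% and 0 lower against 3.94%. Since the members were chosen with this contrast in view, nothing is read from these shares.

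The calls with the batch term rested on the arrays used. Without normal-sodium replicate 1 or 2, or low-sodium replicate 1 or 2, that fit called 1 of the 2 Hbegf probe sets and 0 of the 3 of Adam17, while calls over all probe sets fell to between 0.844% and 1.20%. Without either replicate 3 array it called all 5, with 8.09% and 8.18% of all probe sets called. The other 20 member probe sets were called in none of these 6 fits.

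**Figure D4:**
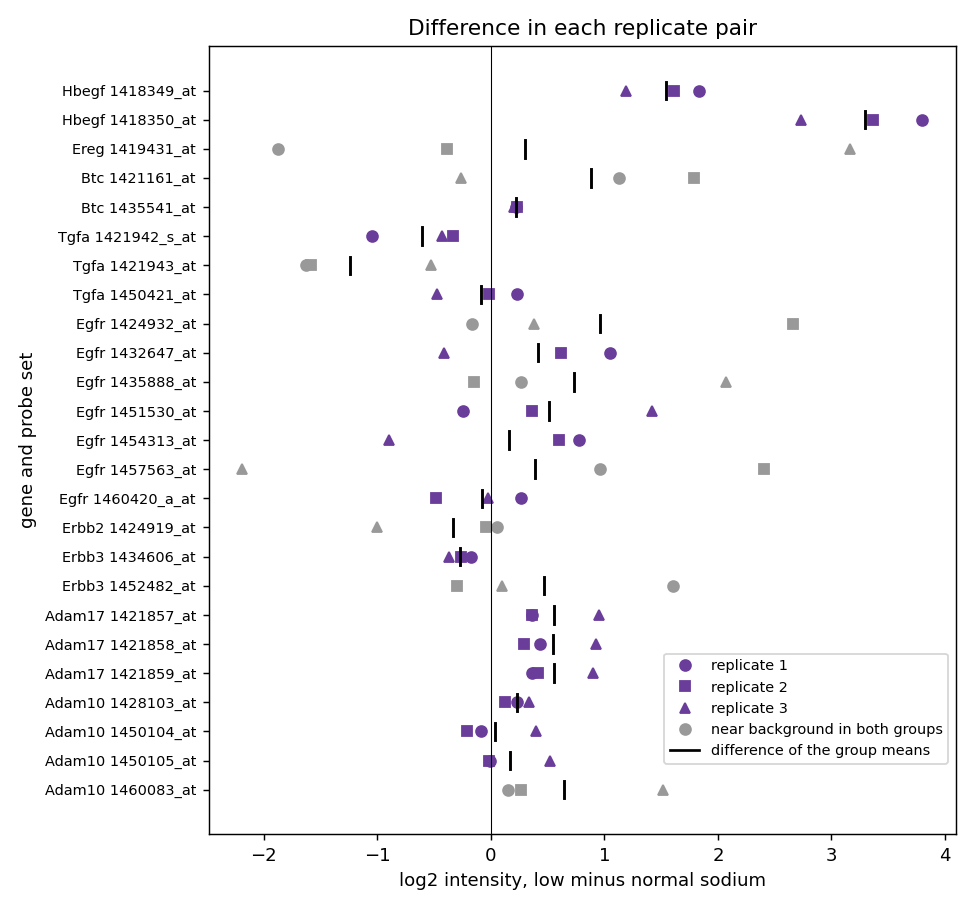
The difference between the media for each of the 25 probe sets, as log2 intensity, low minus normal sodium, on the horizontal axis, with a marker for each replicate pair and a black bar at the difference of the group means; grey markers are probe sets near background in both media. Both Hbegf rows lie between 1.19 and 3.79 in every pair, the Adam17 rows between 0.29 and 0.96, and most grey rows spread over both sides of 0.

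The genes whose brightest probe set followed Hbegf 1418350_at most closely over the 6 arrays were Arhgap25, Ndfip1, Gtf2b, Rgs2 and Slc35d2, out of 10879 genes at or above the median brightness. Pearson's r was 0.996, 0.995, 0.994, 0.991 and 0.991 in this order, over 6 arrays that share the 2 media and the replicate 3 batch. These are the highest of 10879 values, and Hbegf was selected for its difference between the media, so r is high partly by selection. Rgs2, a regulator of G-protein signalling, read 3642, 3302 and 3983 in normal and 10223, 9495 and 7852 in low sodium. Its low-sodium arrays had the order of those of Hbegf, as did those of the other genes named here. Its normal-sodium arrays did not have the order of those of Hbegf. Arhgap25, a GTPase-activating protein of Rac, read 635, 621 and 633 against 2029, 2002 and 1626. The differences of Ndfip1, Gtf2b and Slc35d2 were 0.54, 0.47 and 0.96.

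Genes that work with the family were listed by role, 75 in all, and 69 were measured, each taken by its brightest probe set. Limma without a batch term called 0 of the 69. At an unadjusted p under 0.05 it had 3 higher, or 4.35%, against 3.24% of all probe sets, and 0 lower, against 3.13%. With the batch term and the trended prior 6 rose, or 8.70%, and 0 fell, against 2.07% and 2.01% of all probe sets, or 4.09% and 3.94% of those at or above the median brightness, to which 58 of the 69 belonged. Nothing particular to these lists is read from such shares. The median difference of all probe sets was -0.02.

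Of the 7 other ligands and receptors of the family, 0 rose and 0 fell with the batch term. Epgn, Nrg1, Nrg3 and Erbb4 were near background in both media, and none of the 7 was above it on all arrays. The 2 with the smallest p were the neuregulin genes Nrg3, at 1.77 ± 0.90 (SE) with readings of 1.76 to 30.7, and Nrg4, at -0.45 ± 0.30 with readings of 38.5 to 76.6. The list median was 0.26, with 0.42 in replicates 1 and 2 and -0.12 in replicate 3.

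Of 19 shedding partners and inhibitors, 2 rose and 0 fell with the batch term, and the list median was -0.02. Tspan17, a tetraspanin that binds ADAM10, read 232, 198 and 341 in normal and 610, 477 and 539 in low sodium, a rise of 1.10 ± 0.28 (SE). Timp2, an inhibitor of metalloproteases, read 358, 391 and 301 against 737, 632 and 418, a rise of 0.73 ± 0.29. In both genes the groups did not overlap. Rhbdf2, whose product iRhom2 carries ADAM17 to the surface of macrophages, differed by 0.41 ± 0.40 without passing either fit. Timp3, the tissue inhibitor that acts on ADAM17, was near background in both media.

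The 9 membrane partners of HB-EGF were above background on all arrays, and 2 rose and 0 fell with the batch term. Cd44, a hyaluronan receptor whose heparan sulfate forms can hold HB-EGF, read 6964, 6593 and 2817 in normal and 13001, 12449 and 4456 in low sodium. Sdc1, a heparan sulfate proteoglycan, read 969, 912 and 474 against 1356, 1333 and 792. In both genes the media overlapped, as the replicate 3 arrays were the dimmest in each, while every pair was higher in low sodium. Cd9, the tetraspanin that binds the HB-EGF precursor, differed by 0.32 ± 0.27 (SE). The list median was 0.26, with 0.22 in replicates 1 and 2 and 0.33 in replicate 3.

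Of 18 adaptors and kinases downstream of the receptors, 2 rose and 0 fell with the batch term, at a list median of 0.16. Gab2, a docking protein, read 788, 954 and 860 in normal and 1343, 1619 and 2782 in low sodium, a rise of 1.07 ± 0.33 (SE). Src, the tyrosine kinase that osteoclasts need for their ruffled border, read 74.2, 84.1 and 8.58 against 244, 247 and 112. Its rise was 2.27 ± 0.93, but normal-sodium replicates 1 and 3 were near background. With the background level in place of dimmer readings the difference was 1.34, with 1.58 in replicates 1 and 2 and 0.85 in replicate 3. Of 16 brakes on the EGF receptor 0 rose and 0 fell, at a median of -0.01. Socs3 and Lrig3 had the smallest p there, with differences of -0.83 ± 0.42 and 0.71 ± 0.40. Socs3 was near background on low-sodium replicate 2, and Lrig3 on normal-sodium replicates 2 and 3. Errfi1, an inhibitor that EGFR signalling itself induces, had a difference of 0.01 ± 0.25.

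**Figure D5:**
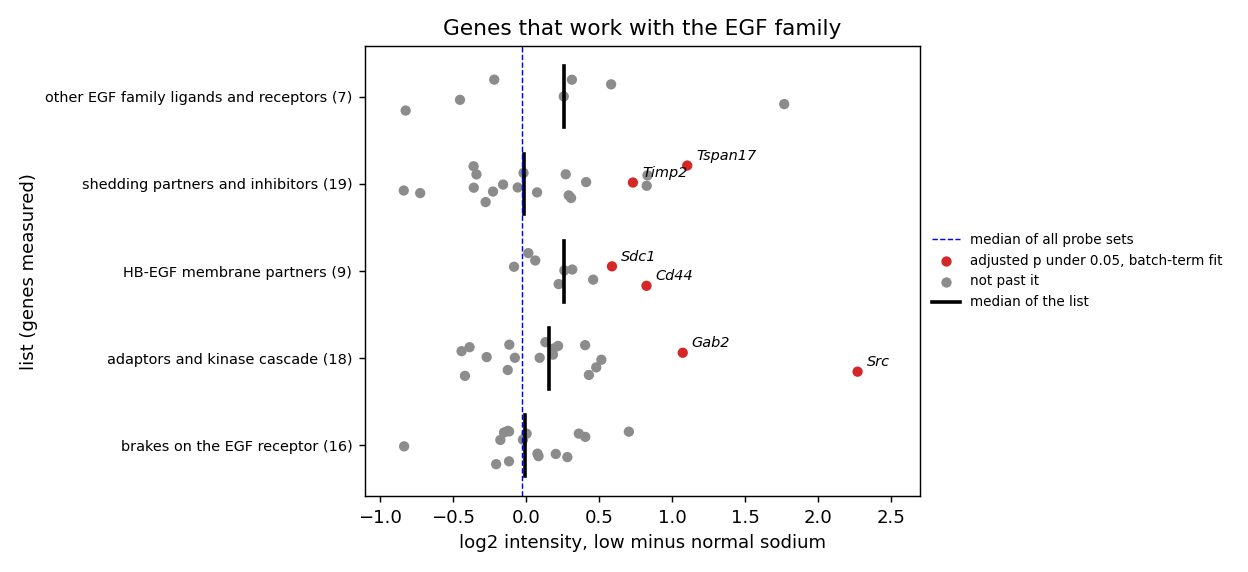
Differences of the 69 measured genes that work with the family, as log2 intensity, low minus normal sodium, on the horizontal axis, a point for each gene in 5 lists (scatter within a row is only for display), black bars at the list medians and a dashed line at the median of all probe sets. Red points passed an adjusted p of 0.05 with the batch term; the 6 are Tspan17, Timp2, Cd44, Sdc1, Gab2 and Src, all higher in low sodium.

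The batch-term calls of these lists also rested on the arrays used. They numbered 1 or 2 without any 1 of the replicate 1 and 2 arrays. Without the normal-sodium or low-sodium replicate 3 array they numbered 14 and 15, where the difference again rests on replicates 1 and 2 alone. Macrophage markers moved in the same contrast, with Adgre1, the gene of F4/80, higher by 0.96 ± 0.31 (SE) and Mertk by 1.47 ± 0.31, both with the batch term, while Csf1r differed by -0.16 and Lyz2 by 0.01. Of the epithelial and fibroblast markers 0 of 10 passed, and Dcn and Epcam, with the smallest p, had differences of -1.72 ± 0.76 and -1.35 ± 0.61. Their part in the results for the family was not tested.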

How the data were processed

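Total RNA was biotin-labelled and hybridised to 6 Affymetrix mouse arrays, per the labels' protocols. The labels speak of biological replicates but do not settle whether each array stands for its own culture. The authors deposited linear intensities, 1 per probe set and array. The submitters' processing notes list Partek. Not given in the sources used here is how probes were summarised. The number of arrays limits the precision.

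The 64 control probe sets were left out. Of 45037 others, 34945 carried 1 gene in the platform annotation, 932 several and 9160 none. Entrez identifiers of 34741 matched the RefSeq table (GRCm38.p6), used for names. Low minus normal sodium was fitted on log2(intensity + 1) with limma 3.58.1 in R 4.3.3 (two-sided, Benjamini-Hochberg over all probe sets, standard errors from this fit), alone and with a batch term for replicate 3 and a trended prior. Scripts were tested on simulated data, with log2 changes of 1 or 2 put into some of the brighter probe sets. Limma alone recovered 0% of either. With the batch term and trended prior it recovered 28.5% and 67.5%, with 3.4% and 2.9% of the calls false. The simulated noise was independent between arrays and drawn from the batch-term model itself. These shares therefore do not give the share of false calls on the real arrays. Members, lists and tests were chosen with earlier results of these data known. In the lists, up to 4 genes past the threshold, or else the 2 with the smallest p, were named by rule, and other genes were named for their role after their values were seen.

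Deviations of same-numbered arrays from their group means correlated at 0.35, 0.33 and 0.51, over probe sets at or above the median. Those of replicates 1 and 2 crossed between media correlated at 0.35 and 0.32, so the pairing reflects the replicate 3 batch. Of the intensities of any array, 0 were identical to those of another. Where replicates 1 and 2 read alike and replicate 3 apart, as for Cd44, replicates 1 and 2 may not be independent. The standard errors and the batch-term calls take all arrays as independent, which was not tested.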

Additional observations from a re-analysis of the deposited data

How the results depend on the processing

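Calls depended on the variance model. Without a batch term 0 of 25 member probe sets, 0 of all probe sets and 0 of the pathway genes passed, and likewise with the replicate number as a block (replicate block, 0, 0 and 0), with the batch term and a constant prior, after quantile normalisation or median centring, and in replicates 1 and 2 alone. A trended prior without the batch term called 1 member probe set (Hbegf) and 33 probe sets in all, and the batch term with it 5, 1840 and 6 pathway genes. A pseudocount of 16 called 1 probe set in all. Testing only probe sets at or above the median called 1 member probe set and 2 in all. Added after seeing the data, the batch-term fit with a pseudocount of 16 called 4, 1720 and 6, and replicates 1 and 2 with a trended prior 5, 3714 and 14. Leaving out each array gave 0 without the batch term, and over both models 0 to 5 member probe sets, 0 to 3684 probe sets in all and 0 to 15 pathway genes. Dropping replicates 1, 2 and 3 of normal sodium in turn from the batch-term fit left 541, 392 and 3644 calls in all, and dropping those of low sodium left 485, 380 and 3684. The 3644 and 3684 calls come from fits whose difference rests on replicates 1 and 2 alone.

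The Hbegf 1418350_at difference of 3.30 became 3.00 with a pseudocount of 16, 3.58 in replicates 1 and 2 alone (with either prior), and 3.13 to 3.58 without 1 array. The upper end of that range is the same value again, from batch-term fits without a replicate 3 array. Of 565 recomputed member differences 545 moved by less than 1 SD. This count does not measure stability, since many of the 565 could not move. With all arrays kept, the replicate block, the batch term, either prior and the test of brighter probe sets alone leave the difference itself unchanged. Median centring shifted all differences by the same small amount. The batch-term fits without a replicate 3 array repeat the value of replicates 1 and 2 alone. Averaging the probe sets of a gene called 0 pathway genes, and the median of all probe sets as background level again left 9 member probe sets near background. Dim readings limit what the 9 probe sets near background in both media and the normal-sodium arrays of Hbegf can show.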
